A study of Mus musculus with 6 samples.

Results

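The genes described here encode serpins and other protease inhibitors. They were chosen by symbol: serpins of clades a to i, the Kunitz-type Spint and Tfpi genes, the Kazal-type Spink genes, cystatins and stefins, the Itih genes, A2m and the whey acidic protein (Wfdc) genes, with Serping1, Spink4 and the unrelated Cstf genes left out. The rule found 49 probe sets for 41 genes, out of 12422 probe sets and 8251 named genes on the array. Expression was read in RNA of the entire small intestine of 6 mice on 1-colour Affymetrix arrays, each mouse on its own array. The 3 Cftr control mice were +/+ and the 3 Cftr null mice -/- for Cftr, the epithelial chloride and bicarbonate channel lost in cystic fibrosis. Each group held 2 males and 1 female, control replicate 3 and null replicate 2 being the females. All 6 were 40 days old and congenic on the black6 background, and both groups had been fed Peptamen, a liquid diet that keeps the bowel of null mice open, since day 10. No mice on solid food were measured, and which part of Cftr the null allele alters is not stated in the sources used here.

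Protease inhibitors hold the digestive, clotting, lysosomal and immune proteases of a tissue in check. A serpin offers the protease a reactive loop as bait and traps the enzyme in a covalent complex when the loop is cut, whereas Kunitz, Kazal and whey acidic protein domains plug the active site of serine proteases, and cystatins that of cysteine proteases such as cathepsins. Several family members no longer inhibit proteases, among them Serpinh1, a chaperone of collagen, and Serpina6, a carrier of corticosteroids. In the gut, serpins of clade a are secreted, those of clade b mostly stay in the cytosol, and Spint1 sits in the epithelial membrane beside the proteases that it restrains.

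No protease inhibitor passed the test for a difference between null and control mice. A probe set was tested where its intensity, in arbitrary units, was above 109.7 in at least 3 of the 6 arrays, which held for 18 of the 49 probe sets and 17 of the 41 genes. Of the 18, 0 passed limma's moderated test at an adjusted p of 0.05, where 3.0% of all 7601 tested probe sets did (1.13% higher and 1.87% lower in null mice). At an unadjusted p under 0.05 there were 5 of the 18 (27.8%), 2 higher and 3 lower in null mice, against 17.3% of all tested probe sets. The smallest adjusted p was 0.182. The median change was -0.21 on the log2 scale, with 6 probe sets above 0 and 12 below, beside a median of 0.03 over all tested probe sets. Serpina1b and Serpina1e, among the 3 lower at an unadjusted p under 0.05, and Serpina1c, also below 0, were read from shared sequence. These counts and the median thus hold that signal more than once. The 95% interval of the change lay wholly within 2-fold in either direction for 9 of the 18, and for 81.4% of all tested probe sets, so that for the other 9 the interval includes a change of 2-fold or more.

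**Figure D1:**
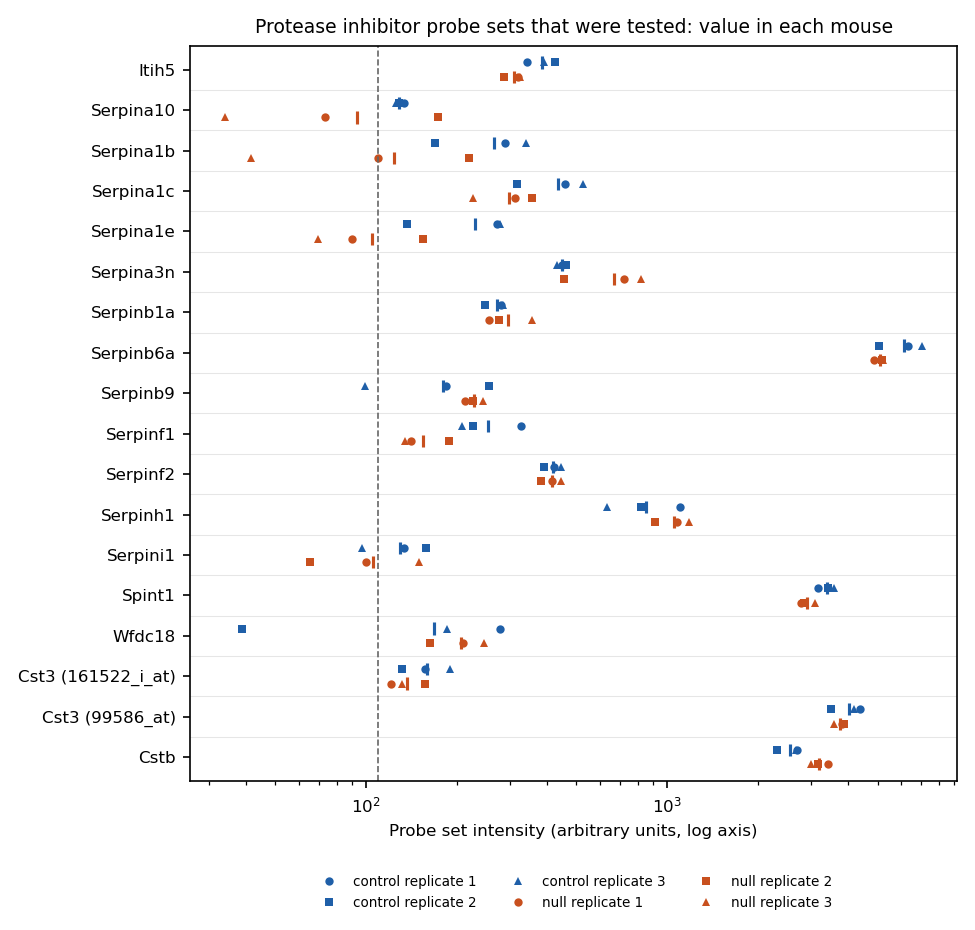
Intensity of the 18 tested protease inhibitor probe sets in each mouse (log axis, arbitrary units), controls in blue and nulls in orange, with a symbol per replicate and a vertical tick at the mean of each group. The dashed line is the level of 109.7 used for the filter. The groups overlap for 14 of the 18 probe sets.

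**Figure D2:**
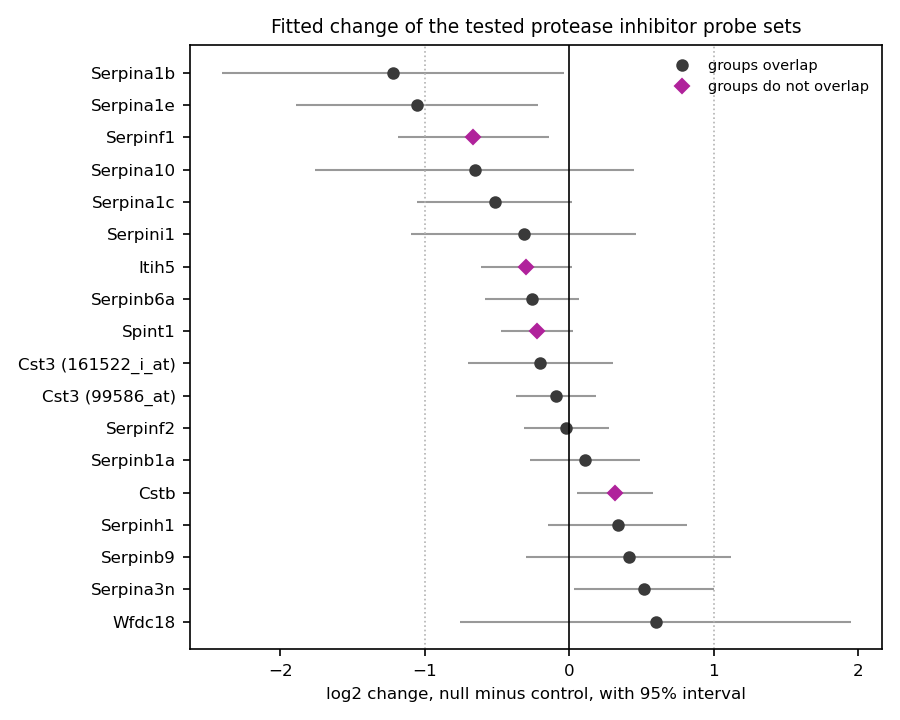
Fitted log2 change from control to null mice of each tested probe set with its 95% interval, sorted by size; diamonds mark the 4 whose groups do not overlap. The dotted lines stand at 2-fold, and changes run from -1.22 for Serpina1b to 0.60 for Wfdc18.

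The libraries as a whole bear on these values in a few ways. The 2%-trimmed mean intensity was 500.3 on each array, so they had been scaled alike before deposit. Cftr itself was at 801.6 to 1017.5 in controls and 295.6 to 368.5 in nulls (adjusted p = 0.00421). All 8 small intestinal epithelial markers measured were bright enough to test and 0 passed, yet their summed intensity was 62060 to 73652 in controls and 28012 to 50842 in nulls, with the largest drops in 3 very bright enterocyte genes, Fabp2, lactase (Lct) and Apoa4. The groups overlapped for Vil1, Epcam, Cdh1, Cdx1 and Cdx2, of which Cdx1 and Cdx2 had higher means in nulls, and for the sum without the 3 bright genes (13360 to 17638 and 11398 to 15137). The summed intensity of 12 mast cell markers was 896.2 to 1045.4 in controls and 4701 to 12375 in nulls. Mcpt1 and Mcpt2 made up nearly all of that rise: without them the sums were 722.5 to 814.0 and 708.4 to 1217, with overlap. Of the other 10, Cpa3 was higher in nulls (adjusted p = 0.0151 in limma's fit). It was at 13.5 to 30.6 in controls and 136.1 to 340.2 in nulls, so only the nulls brought it above the filter. In the fit without a filter, the adjusted p of Cpa3 was 0.0209. Ms4a2 and Fcer1a were dim and higher in each null than in any control. The groups overlapped for 7, Tpsb2, Cma1 and Mcpt8 having lower means in nulls. The sums of 7 fibroblast markers (9379 to 10376 and 11487 to 12578) and 6 smooth muscle markers (8833 to 13272 and 15859 to 20303) were higher in nulls too. Of the fibroblast markers 0 passed, and the groups overlapped for Dcn, Pdgfra and Pdgfrb, the last with a lower mean in nulls. Of the smooth muscle markers only Actg2 passed, and the groups overlapped for Acta2 and Myh11. The sums of 9 pancreatic acinar markers (5146 to 5614 and 4683 to 6984) and 7 endothelial markers (1893 to 2212 and 1798 to 2225) overlapped. The sum of 8 macrophage and monocyte markers was lower in nulls (7667 to 10108 and 6550 to 6866). That drop was carried by Lyz2 (means 6598 in controls and 3687 in nulls), which passed the threshold, so the sum does not describe the other markers. Cd14 (705.9 to 901.0 in controls and 1105 to 1156 in nulls) and Cd68 (316.0 to 401.0 and 410.7 to 431.1) were higher in each null than in any control. Fcgr1 (215.7 to 293.0 and 184.0 to 211.7) was lower in each null, and the groups overlapped for the others. The sum of 5 B and plasma cell markers was higher in nulls (4077 to 4402 and 6091 to 7123). Jchain, which passed, carried that rise (means 3222 in controls and 5564 in nulls). For Cd79a, Cd79b, Ms4a1 and Blk the groups overlapped, Cd79a and Ms4a1 having lower means in nulls. In whole tissue, fewer cells of a type and less RNA per cell cannot be told apart, and the part of these shifts in the results that follow was not tested.

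Serpina1, which encodes alpha-1-antitrypsin, the main plasma inhibitor of neutrophil elastase, exists in mice as several near-identical neighbouring copies on chromosome 12. The sequence just upstream of the copies that had a probe set of their own is shown because these probe sets all read lower in null mice, and because it makes plain how alike the copies are. The stretches come from the RefSeq promoter table (GRCm38.p6, minus strand) and lie before the annotated start. The capitals mark GTTAAT, letters at the core of the motif bound by the hepatocyte nuclear factor HNF1.
Serpina1b, chr12:103738200-103738275: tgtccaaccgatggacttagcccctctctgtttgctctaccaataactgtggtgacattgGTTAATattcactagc
Serpina1c, chr12:103904962-103905037: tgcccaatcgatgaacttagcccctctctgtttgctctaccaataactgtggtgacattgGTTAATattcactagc
Serpina1e, chr12:103956960-103957035: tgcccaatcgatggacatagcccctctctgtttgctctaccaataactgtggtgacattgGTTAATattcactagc
Over these 76 bases Serpina1c and Serpina1e differ at 2 positions, and Serpina1b differs at 3 from either. A run of 55 bases, ending the stretch, is the same in all 5 copies and in none of the other upstream windows of 250 bases in the table, 32851 in all. GTTAAT, read on both strands, was in the windows of all 5 copies and in 6.43% of all windows.

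The Serpina1 copies were read lower in null mice by every probe set, but none passed. Serpina1b was at 289.6, 169.5 and 339.3 in control replicates 1 to 3 and at 110.0, 220.6 and 41.6 in null replicates 1 to 3. The groups overlap through null replicate 2, the female, which lay above control replicate 2. The means were 266.1 ± 87.3 (SD, n = 3) and 124.1 ± 90.3, a change of -1.22 on the log2(value + 12) scale used throughout (SE 0.51, adjusted p = 0.274 in limma's fit). Serpina1e gave 272.6, 136.4 and 279.2 in controls and 89.9, 154.8 and 69.1 in nulls, a change of -1.05 (SE 0.36, adjusted p = 0.189). The brighter Serpina1c probe set gave 456.8, 317.8 and 525.4 in controls and 312.5, 356.5 and 225.9 in nulls, a change of -0.52 (SE 0.23, adjusted p = 0.309). All 3 probe sets put the 6 mice in the same order, from control replicate 3 at the top through control replicate 1, null replicate 2, control replicate 2 and null replicate 1 to null replicate 3. Their names carry the mark of a probe set that matches a gene family, so they are readings of shared sequence and do not tell the copies apart.

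A second Serpina1c probe set, without that mark, was too dim to be tested. It gave 64.6, 19.1 and 110.3 in controls and 10.4, 9.9 and 3.5 in nulls, so that its groups do not overlap. Another 3 probe sets were assigned to between 3 and 5 Serpina1 copies at once and are not counted among the 49. The brightest of these, assigned to 4 copies, gave 318.6, 196.0 and 321.1 in controls and 126.7, 160.1 and 110.7 in nulls, with no overlap (log2 change -0.99, SE 0.24, adjusted p = 0.0816). The other two changed by -0.63 (adjusted p = 0.454) and -0.54 (adjusted p = 0.525), with overlap. Serpina1 is best known as a liver product. Among hepatocyte markers, Alb was at 38.9 to 84.6 in controls and 69.2 to 103.0 in nulls. Apoh was at 15.8 to 30.6 in controls and 13.7 to 18.5 in nulls. Apoh, Ahsg, Tdo2, Ttr and Fgg had lower means in nulls, and Alb, Hp, Cyp2e1, Hpx, Fga, Fgb and Tat higher ones. Of the 12 such markers measured, 4 were bright enough to test and 1 passed. This was Tat, at 28.0 to 137.8 in controls and 375.9 to 1502 in nulls. The summed intensity of all 12 was 1121 to 1156 in controls and 1453 to 2542 in nulls, a difference carried by Tat: without it the sums were 1013 to 1093 and 1040 to 1184, with overlap. The summed small intestinal epithelial markers were lower in nulls, with replicate 2 (50842) above replicate 1 (37939) and replicate 3 (28012), the order of the nulls in Serpina1b. The dim Serpina1c probe set, and all but the brightest of those assigned to several copies, put the nulls in other orders. Among the controls the epithelial sum was highest in replicate 1 (73652), then 3 (70247) and 2 (62060), whereas Serpina1b was highest in replicate 3. The part of these marker shifts in the Serpina1 values was not tested.

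**Figure D3:**
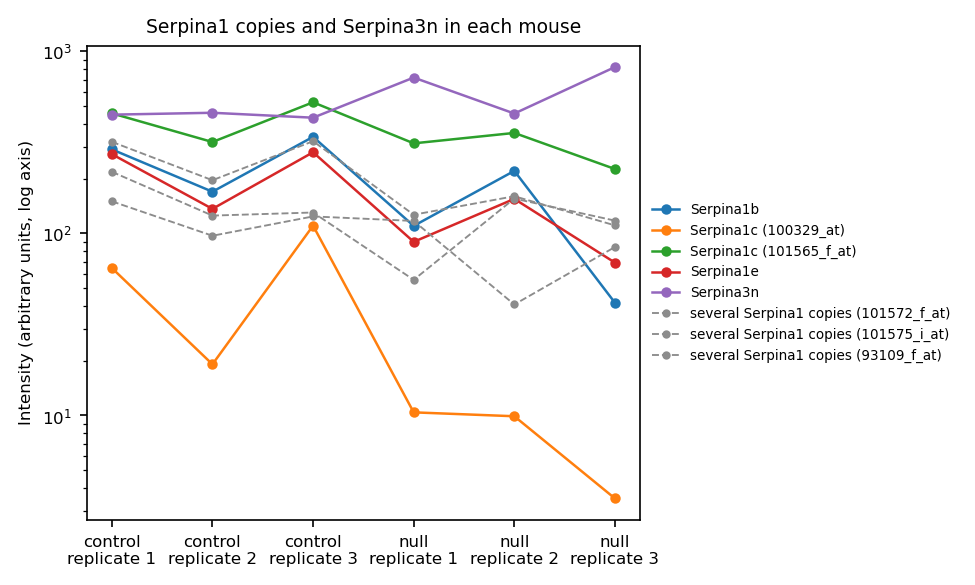
Intensity (log axis, arbitrary units) of each Serpina1 probe set and of Serpina3n in the 6 mice; dashed grey lines are probe sets assigned to several Serpina1 copies, and lines join the values of a probe set only to guide the eye. Null replicate 3 is lowest on all 4 probe sets that name a Serpina1 copy, and Serpina3n is highest there.

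Serpina3n, a secreted inhibitor of chymotrypsin-like proteases and granzyme B whose transcript is known to rise in inflammation, went the other way. It was at 449.2, 460.1 and 432.3 in controls and at 718.2, 455.6 and 820.2 in nulls. The 3 controls lay close together, and both male nulls stood well above them, while the female null fell within their range. The means were 447.2 ± 14.0 (SD, n = 3) and 664.7 ± 188.1, a ratio of 1.43 (95% interval 1.02 to 2.01), which did not pass (adjusted p = 0.258). Without null replicate 2, however, Serpina3n did pass (log2 change 0.76, adjusted p = 0.0436), in a fit that called 2.39% of all probe sets (0.855% higher and 1.54% lower). Over all alternatives its adjusted p ran from 0.0436 to 0.493. With males only, the change was 0.74 (adjusted p = 0.119).

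The other secreted clade a serpins were dim. Serpina10, the protein Z-dependent inhibitor of clotting factor X, was at 133.6, 128.5 and 125.4 in controls and at 72.9, 173.0 and 34.1 in nulls (log2 change -0.65, SE 0.48, adjusted p = 0.541). Here the male nulls lay below and the female null above every control. Serpina5, the protein C inhibitor, Serpina6, the corticosteroid carrier, and Serpina12, vaspin, were too dim to be tested on any of their probe sets. The brighter of the Serpina6 probe sets was at 95.6 to 115.9 in controls and 80.5 to 112.1 in nulls, so the groups overlap.

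Among the cytosolic serpins of clade b, Serpinb6a, an inhibitor of trypsin-like proteases and cathepsin G, was measured well above the filter in every mouse. It gave 6333, 5043 and 7035 in controls and 4878, 5188 and 5209 in nulls (log2 change -0.26, SE 0.14, adjusted p = 0.399). The null values lay at the low end of the control range, 1 of them below it, and the 95% interval of the ratio ran from 0.669 to 1.05. Serpinb1a, an inhibitor of neutrophil serine proteases, was at 280.8, 249.2 and 285.4 in controls and 255.7, 277.1 and 357.2 in nulls (ratio 1.08, 95% interval 0.828 to 1.41, adjusted p = 0.78). Serpinb9, the granzyme B inhibitor of cytotoxic lymphocytes and antigen-presenting cells, was at 184.1, 255.8 and 99.1 in controls and 212.9, 227.2 and 244.0 in nulls. The null values fell within the control range, which the female control widened downwards (log2 change 0.41, SE 0.31, adjusted p = 0.547). The remaining clade b genes, Serpinb2, Serpinb3a, Serpinb5, Serpinb6c and Serpinb9e, were not bright enough to test, with no value above 139.6.

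Of the other serpin clades, Serpinf1, pigment epithelium-derived factor, a secreted serpin that does not inhibit proteases and restrains vessel growth, had the smallest adjusted p of the 18 tested members. Its tested probe set was at 327.8, 226.5 and 208.7 in controls and at 141.2, 188.5 and 134.6 in nulls, with no overlap. The means were 254.3 ± 64.2 (SD, n = 3) and 154.8 ± 29.4, a log2 change of -0.66 (SE 0.23, adjusted p = 0.182). The name of this probe set marks possible cross-hybridization. A second, dim Serpinf1 probe set without that mark did not share this direction, at 10.3, 41.7 and 4.7 in controls and 27.1, 33.4 and 30.4 in nulls. Serpinh1, the collagen chaperone also known as HSP47, was at 1108, 817.9 and 633.5 in controls and 1079, 914.8 and 1181 in nulls. These groups overlap (log2 change 0.34, SE 0.21, adjusted p = 0.458), beside a higher summed intensity of the fibroblast markers in nulls, of which 0 passed.

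Serpinf2, the plasmin inhibitor alpha-2-antiplasmin, differed least among the tested probe sets. Its tested probe set, which carries the same mark, was at 421.5, 388.8 and 445.2 in controls and 413.8, 381.2 and 445.2 in nulls, a ratio of 0.988 with a 95% interval of 0.807 to 1.21 (adjusted p = 0.958). A second Serpinf2 probe set, without the mark, was too dim to test, at 15.9 to 41.7 in controls and 22.6 to 33.5 in nulls. Serpini1, neuroserpin, an inhibitor of tissue plasminogen activator in neurons, was at 133.7, 157.8 and 97.2 in controls and 99.8, 65.3 and 150.4 in nulls (log2 change -0.32, SE 0.34, adjusted p = 0.677). The thrombin inhibitors Serpinc1, antithrombin, and Serpind1, heparin cofactor II, were below the filter in all 6 mice.

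Spint1, the Kunitz inhibitor HAI-1, restrains matriptase and the hepatocyte growth factor activator at the epithelial surface. It was at 3180, 3423 and 3587 in controls and at 2784, 2853 and 3094 in nulls, so that every null lay below every control. The separation was small: the means were 3397 ± 205 (SD, n = 3) and 2910 ± 163, a ratio of 0.857 (95% interval 0.722 to 1.02, adjusted p = 0.337). The probe set of its relative Spint2 was at 11.6 to 61.7 in controls and 14.4 to 22.0 in nulls, too dim to compare. The tissue factor pathway inhibitors Tfpi (49.6 to 102.7 over the 6 mice) and Tfpi2 (67.2 to 122.5) were not tested either.

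Cystatin B, Cstb, the cytosolic stefin that inhibits lysosomal cysteine cathepsins leaking into the cytosol, was the single tested member with every null above every control. It was at 2698, 2324 and 2677 in controls and at 3415, 3161 and 3015 in nulls. The means were 2566 ± 210 (SD, n = 3) and 3197 ± 202, a ratio of 1.25 (95% interval 1.04 to 1.5), which did not pass (adjusted p = 0.207). Cystatin C, Cst3, its secreted relative, was at 4368, 3500 and 4175 in controls and 3800, 3878 and 3584 in nulls. For Cst3 the ratio was 0.939 with a 95% interval of 0.775 to 1.14 (adjusted p = 0.741), and a dimmer Cst3 probe set, also marked, gave a log2 change of -0.20 (adjusted p = 0.683). Cst7, cystatin F of lymphocytes and myeloid cells, and Cst9 were not tested.

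Itih5, a heavy chain of the inter-alpha-trypsin inhibitor family, which binds hyaluronan in the matrix, was at 342.0, 422.9 and 390.3 in controls and 319.0, 288.3 and 324.8 in nulls. All nulls lay below all controls, by a small margin (log2 change -0.30, SE 0.14, adjusted p = 0.319). A second Itih5 probe set, whose name marks possible cross-hybridization, was too dim to test. It was at 12.5 to 42.2 in controls and 16.1 to 52.3 in nulls, with overlap. The family members Itih1 to Itih4, known mainly from liver, never exceeded 90.9. Wfdc18, a whey acidic protein gene first described in mammary tissue, had the largest SE of the tested members, with 278.8, 38.6 and 186.2 in controls and 210.8, 163.6 and 246.8 in nulls (log2 change 0.60, SE 0.58, adjusted p = 0.647). Control replicate 2 lay far below the other controls, and without it the change was -0.15. A2m, the alpha-2-macroglobulin that cages proteases of all classes, was at 3.5 to 7.4 in the 6 mice.

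Null and control groups did not overlap in 4 of the 18 tested probe sets (22.2%), beside 23.8% of all tested probe sets (13.1% higher and 10.8% lower). These were Cstb, higher in nulls, and Serpinf1, Spint1 and Itih5, lower in nulls. The share among the members thus lay close to that on the whole array.

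The 31 members below the filter, of 24 genes without any tested probe set and 4 genes with another that was tested, ranged from 2.0 to 142.7, and 25 probe sets of the 49 never exceeded 109.7. In 8 of the 31 the groups did not overlap (25.8%), against 11.6% of all untested probe sets (6.26% higher and 5.31% lower). Among the 8, 5 were higher in nulls and 3 lower. Spink1, the Kazal inhibitor that blocks trypsin in pancreas and gut, was at 40.1, 42.8 and 46.1 in controls and at 125.9, 142.7 and 74.9 in nulls. Every null thus lay above every control, but only 2 mice exceeded the filter. When all 12422 probe sets were tested without a filter, Spink1 had a log2 change of 1.16 (SE 0.30, adjusted p = 0.132), the smallest adjusted p of the 49. In that fit 0 of the 49 passed, 1.39% of all probe sets did (0.523% higher and 0.869% lower), and at an unadjusted p under 0.05 there were 10 of the 49 (20.4%) against 13.3% of all. The summed pancreatic acinar markers overlapped between groups, as given above, though Cela2a among them was lower in each null than in any control. Their part in the Spink1 values was not tested. Control replicates 1 to 3 and null replicates 1 to 3 read 24.6, 19.1, 16.3 and 83.4, 35.8, 55.4 for Serpind1. For Serpinb5, maspin of stratified and glandular epithelia, they read 6.9, 2.4, 13.6 and 21.1, 29.3, 69.6. Serpinb5 was thus higher in each null than in any control, at levels where little signal is present. Serpina5, on its brighter probe set (23.7 to 28.5 and 29.1 to 72.9), and Serpina12 (7.8 to 11 and 12 to 16.3) were likewise higher in nulls. In the opposite direction, Wfdc21, a secreted whey acidic protein, was at 61, 35.3 and 52.0 in controls and 10.6, 31.7 and 11.2 in nulls. Itih2 and the dim Serpina1c probe set were the other two with lower values in each null. These 8 were chosen after their values were seen, and carry no test of their own.

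**Figure D4:**
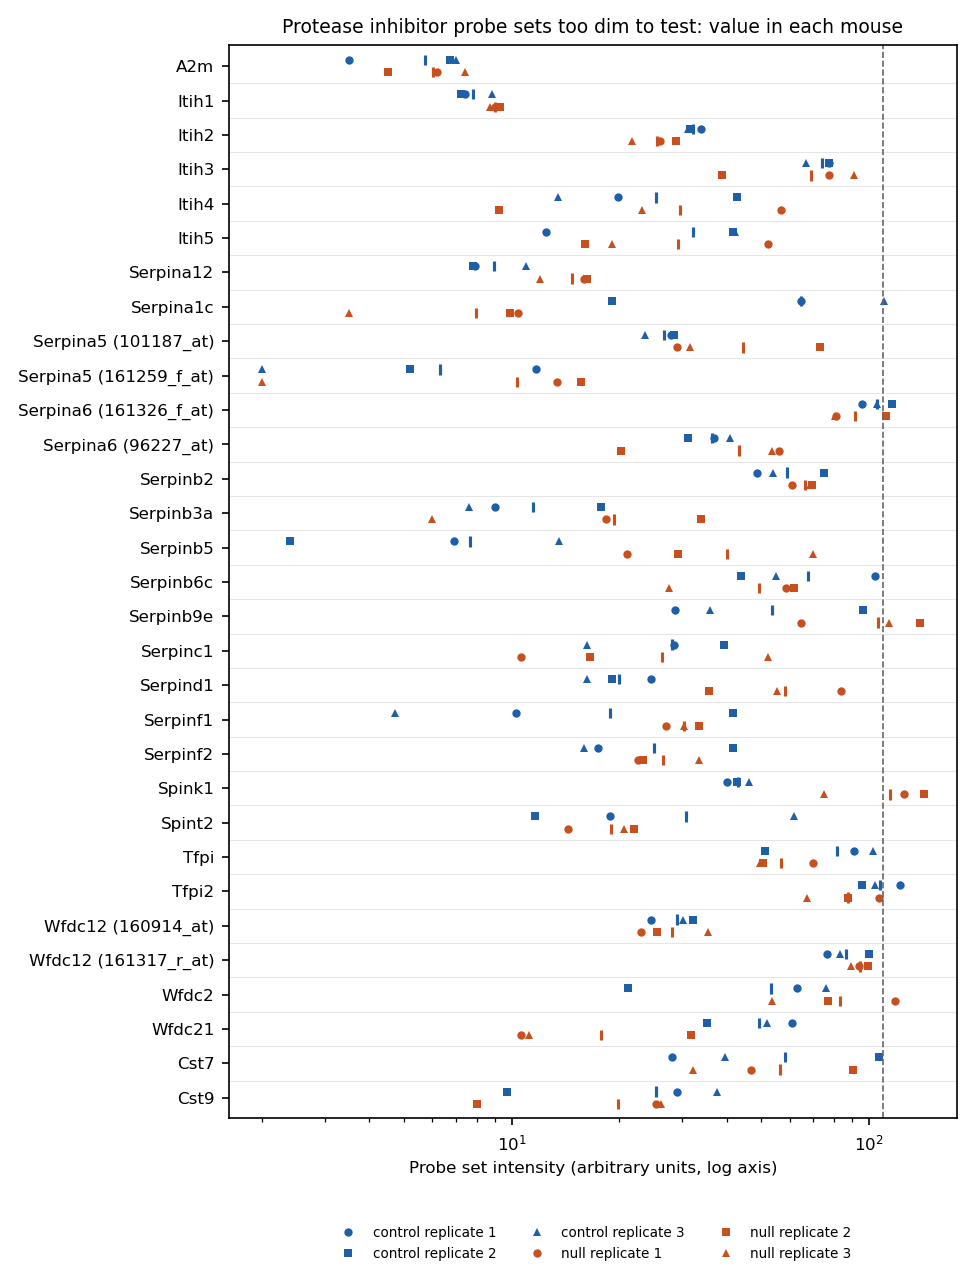
Intensity of the 31 protease inhibitor probe sets below the filter in each mouse (log axis, arbitrary units), drawn as for the tested ones, with the filter level of 109.7 dashed. Spink1, Serpind1, Serpinb5, Serpina12 and a Serpina5 probe set have all nulls to the right of all controls; Itih2, Serpina1c and Wfdc21 have them to the left.

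Proteases, with some of their cofactors and receptors, and inhibitors of other families were read from lists by role. Not every gene in these lists is a target of the members described here. Leukocyte serine proteases held the clearest change: of 6 genes tested, 2 rose and 0 fell (33.3% past the threshold, beside 3.0% of all probe sets; median log2 change 0.19). Both are chymases of mucosal mast cells. Mcpt1 was at 189.3, 71.7 and 19.0 in controls and 4796, 2265 and 6120 in nulls (log2 change 5.66, SE 0.65, adjusted p = 0.006), and Mcpt2 at 133.6, 93.0 and 100.5 and at 2976, 1728 and 5038 (log2 change 4.63, SE 0.35, adjusted p = 0.00169). The Mcpt1 probe set carries the gene family mark. The tested granzymes and neutrophil elastase, which several of the serpins above can trap, did not pass. Gzmb was at 327.1 to 534.2 in controls and 354.9 to 710.1 in nulls, Gzma at 432.3 to 672.8 and 493.1 to 818.1, and Elane at 181.8 to 205.1 and 148.1 to 184.8. Of 12 neutrophil markers, Ltf passed in limma's fit, higher in nulls (adjusted p = 0.0368). It was at 22.5, 43.7 and 29.1 in controls and 114.9, 154.9 and 183.5 in nulls, so only the nulls brought it above the filter. In limma's fit without a filter, the adjusted p of Ltf was 0.0305. The untested S100a8, S100a9 and Mpo were higher in each null than in any control. For the others, Elane among them, and for the sum of all 12 (1025 to 1727 and 1501 to 1898), the groups overlapped.

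Of 12 genes tested in the list of cathepsins and legumain, 0 passed (median log2 change -0.05). Cystatins act on its cysteine proteases, such as Ctsb and Ctss, and not on Ctsa, Ctsd and Ctse, which are of other classes. Ctsb was at 5048 to 5377 in controls and 4943 to 5486 in nulls, and Ctss at 4922 to 5599 and 4423 to 5176. Of 18 membrane-anchored and trypsin-like serine proteases 0 passed (median 0.16, 14 above 0, beside 4126 of all 7601 tested probe sets above 0). Klk1, Klk1b1, Klk1b5, Klk1b16 and Klk1b22, all above 0, were read from probe sets with the gene family mark. The count above 0 and the median may thus hold a shared signal more than once. The brightest readings were of Htra2, a mitochondrial protease, at 2539 to 2913 in controls and 2537 to 2817 in nulls, and Prss30 at 1207 to 2673 and 1738 to 2164. The name of that Htra2 probe set marks possible cross-hybridization. A second Htra2 probe set, without the mark, was far dimmer, at 146.2 to 175.9 in controls and 114.6 to 197.4 in nulls. Hgfac, the growth factor activator that Spint1 inhibits, was at 589.1, 423.7 and 479.8 in controls and 744.3, 642.1 and 798.3 in nulls (log2 change 0.55, adjusted p = 0.125). Prss8, prostasin, was at 288.9 to 392.1 in controls and 295.1 to 420.8 in nulls. The epithelial protease Tmprss2 was at 873.2, 972.4 and 968.7 in controls and 1729, 1213 and 1669 in nulls (log2 change 0.69, adjusted p = 0.0641).

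Of 8 clotting and fibrinolysis genes 0 passed (median 0.12). F7, the clotting factor that Tfpi blocks together with tissue factor, was at 1048 to 1215 in controls and 1103 to 1328 in nulls, but a second F7 probe set was dim. Plat, tissue plasminogen activator, was at 234.1 to 373.6 and 263.1 to 489.4. Plaur, the urokinase receptor, was below the filter in most mice, at 19.0, 17.6 and 26.4 in controls and 80.6, 85.8 and 119.7 in nulls, and passed in the fit without a filter (log2 change 1.69, adjusted p = 0.0316). Of 12 meprins, ADAMs and matrix metalloproteases, Bmp1, the procollagen C-proteinase, fell (338.9, 435.2 and 343.2 in controls, 197.1, 168.5 and 135.8 in nulls, log2 change -1.11, SE 0.19, adjusted p = 0.0225) and 0 rose, with a list median of 0.21. Bmp1 did not pass with males only (adjusted p = 0.11) or in any of the 6 fits without 1 mouse (adjusted p 0.0533 to 0.0743, log2 change -1.23 to -0.98). A second Bmp1 probe set did not pass (log2 change -0.11, adjusted p = 0.756). Of 15 other inhibitors, among them Slpi, the Timp genes and the calpain inhibitor Cast, 0 passed (median -0.04). The brightest Slpi probe set, of the leukocyte elastase inhibitor of mucosal surfaces, was at 525.6 to 626.0 in controls and 579.8 to 738.0 in nulls (adjusted p = 0.455). Another Slpi probe set gave a log2 change of 0.445 (adjusted p = 0.506 in limma's fit). One whose name marks possible cross-hybridization gave -0.105 (adjusted p = 0.855), and a further one was too dim to test. App, whose longer forms carry a Kunitz domain, was at 5076 to 6727 and 5588 to 6226 (adjusted p = 0.823), and its relative Aplp2 at 1188 to 2135 and 992.6 to 1824.

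**Figure D5:**
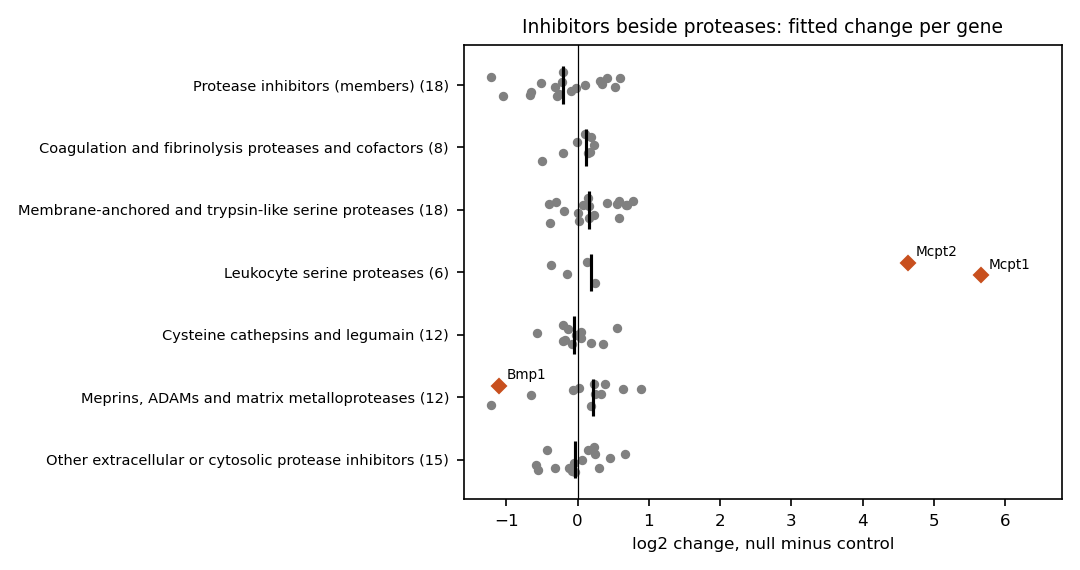
Fitted log2 change from control to null mice of the 18 tested members (by probe set) and of the tested genes in each list (by the probe set with the highest mean), with the number tested in brackets; black ticks are medians and orange diamonds are genes past the threshold. Mcpt1 and Mcpt2 stand far to the right, Bmp1 to the left, and no member is past the threshold.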

How the data were processed

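The authors deposited probe set intensity values on a linear scale, 12488 per array; the software, background correction and scaling are not given in the sources used here. The 66 Affymetrix control probe sets were dropped. The platform annotation gave 10833 of the remaining 12422 a single symbol, 396 several and 1193 none. All 49 member probe sets matched RefSeq by Entrez identifier, with unchanged symbols. Deposited values were turned into log2(value + 12), where 12 is about the 10th percentile, which understates changes of dim genes. The filter of 109.7 is the 40th percentile. limma 3.58.1 in R 4.3.3 compared null with control (lmFit, then eBayes using the mean-variance trend), two-sided; p-values were adjusted by Benjamini-Hochberg across the 7601 probe sets tested, at a threshold of 0.05. The code was tested on simulated data. The number of mice limits the precision. Intervals are 95% and unadjusted. List genes were read from their tested probe set with the highest mean.

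Members and lists were chosen with earlier results of these data known. Named by rule were members past the threshold (0), tested members without overlap between groups, and otherwise the tested members with the highest means until each family had 2; in lists, genes past the threshold or else the 2 brightest. Serpina1b, Serpina1e, Serpina10, Serpinb9, Serpinf2, Serpini1, the dim members, the 3 probe sets of several Serpina1 copies, and Gzma, Gzmb, Elane, Hgfac, Prss8, Tmprss2, Slpi and Plaur were named after their values were seen. Other settings tried were arrays brought to equal medians or to equal quantiles, a pseudocount of 3 or of 48, all probe sets unfiltered, a filter at 288.7 (60th percentile), a sex term, only the male mice, eBayes with no trend or with robust variances, leaving out each mouse in turn, and leaving out probe sets whose name marks possible cross-hybridization (11 of the 49). The interaction of genotype and sex, and marker sums without their dominant genes, were added after seeing the data.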

Additional observations from a re-analysis of the deposited data

Results flagged for a closer look

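Serpina10 moved in opposite directions in the sexes. Both male nulls (72.9 and 34.1) lay below both male controls (133.6 and 128.5), a log2 change of -1.19, while the female null (173.0) lay above the female control (125.4), a change of 0.43. The change in the females minus that in the males was 1.62, which did not pass the interaction of genotype and sex in limma's fit (unadjusted p = 0.0653, adjusted p = 1.0). With 1 female per group, the sex and the single mouse cannot be told apart.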

How the results depend on the processing

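Protease inhibitor probe sets past the threshold numbered 0 higher and 0 lower under each alternative listed except leaving out single mice, which gave 0 to 1 higher and 0 lower; the 1 was Serpina3n, without null replicate 2. Of 279 changes of tested members recomputed under the alternatives, 5 reversed, none past the threshold: Serpinf2 was 0.082 with males only and -0.071 to 0.038 when single mice were left out, Serpinb1a was -0.026 to 0.205 and Wfdc18 -0.15 to 1.11 when single mice were left out. Over all probe sets, 86 were higher and 142 lower; these counts were 50 and 85 with males only, 49 and 92 without the variance trend, and 17 to 68 and 35 to 117 when single mice were left out. Both counts were lowest without null replicate 1 (17 and 35), and both also fell by more than 1.5 times without control replicate 1 (31 and 45) and null replicate 3 (28 and 56); without control replicate 2, 87 were lower. In the lists of proteases and other inhibitors, 2 genes were higher (Mcpt1, Mcpt2) and 1 lower (Bmp1). With males only 0 were lower, and without probe sets named for cross-hybridization 1 was higher. With no filter 3 were higher, Plaur being added, and with the filter at the 60th percentile 3 were higher, Tmprss2 being added at an adjusted p of 0.05 after rounding. When single mice were left out, 2 to 4 were higher and 0 to 1 lower: Bmp1 passed in none of these 6 fits, Ctsc and Tmprss2 were higher without null replicate 2, and Adam28 was lower without control replicate 2. The cause was not tested, beyond fewer mice in each such fit. No paired analysis was possible because the labels give no pairing. They give no replicate numbers either, and those used here follow the order of the arrays within each group. Dim signal limits the comparison for the 31 members that were not tested.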
